A study of Mus musculus with 6 samples.

Results

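The genes described here form the growth hormone, IGF1 and binding protein axis of the liver. They are the growth hormone receptor gene Ghr, its transcription factor Stat5b, the feedback inhibitors Socs2 and Cish, the hormone gene Igf1, and the carriers Igfals, Igfbp1, Igfbp2, Igfbp3 and Igfbp4. All probe sets that the array annotation gives to 1 of these 10 symbols alone were taken, which made 21 of 22626 probe sets that are not array controls. All 10 genes were measured, among 8047 genes with a kept probe set. The liver of male mice aged 12 weeks was compared between chromogranin A knockout mice (3 arrays) and wild-type mice (3 arrays), with 1 animal per array and total RNA from the whole tissue. Both groups are attributed in the labels to the same earlier description of the knockout line. Chromogranin A (Chga) is a prohormone of neuroendocrine secretory granules, and strain background, feeding and hour of dissection are not in the labels.

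Growth hormone from the pituitary binds its receptor on hepatocytes, and the kinase JAK2 then phosphorylates STAT5B, which enters the nucleus and activates Igf1, Igfals, Socs2 and Cish. The liver releases IGF1 into blood, where much of it travels in a complex with IGFBP3 and the acid-labile subunit encoded by Igfals. IGFBP1 and IGFBP2 form smaller complexes with IGF1. Igfbp1 is known as a fast-responding gene that insulin represses and that fasting and glucocorticoids induce, and Igfbp2 is likewise known to be higher in fasted liver.

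The promoter sequences of the 3 binding protein genes that read lower in knockout than in wild type are shown. These genes had the largest changes of the axis, though none passed the test described below. They are the 250 bases before the RefSeq start site in assembly GRCm38.p6, 5′ to 3′ on the strand of the gene. Capitals mark a match to a forkhead core (TGTTTAC or TGTTTTG, on either strand, so also GTAAACA or CAAAACA) or to the STAT5 palindrome TTCNNNGAA, which reads the same on both strands. Overlapping matches were each counted.
Igfbp1, chr11:7197537-7197786, plus strand: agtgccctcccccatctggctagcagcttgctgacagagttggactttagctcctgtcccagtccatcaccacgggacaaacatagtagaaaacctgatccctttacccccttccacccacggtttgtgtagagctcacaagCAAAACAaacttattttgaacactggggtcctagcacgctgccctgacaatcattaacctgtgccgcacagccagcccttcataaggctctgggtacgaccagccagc
Igfbp2, chr1:72824230-72824479, plus strand: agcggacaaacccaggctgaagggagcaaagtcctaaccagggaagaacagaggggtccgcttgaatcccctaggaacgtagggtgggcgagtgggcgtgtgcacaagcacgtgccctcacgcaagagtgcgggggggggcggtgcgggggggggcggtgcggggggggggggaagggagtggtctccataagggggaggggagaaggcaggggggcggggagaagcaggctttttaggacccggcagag
Igfbp3, chr11:7213924-7214173, minus strand: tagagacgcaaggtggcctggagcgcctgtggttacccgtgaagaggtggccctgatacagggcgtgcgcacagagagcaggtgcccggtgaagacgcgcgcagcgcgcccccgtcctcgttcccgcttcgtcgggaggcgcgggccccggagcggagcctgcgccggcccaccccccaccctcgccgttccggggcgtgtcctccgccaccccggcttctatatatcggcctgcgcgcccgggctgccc
The Igfbp1 stretch holds 1 match, CAAAACA from -108 to -102, counting the base before the start as -1. The stretches of Igfbp2 and Igfbp3 hold 0 matches, and their GC content is 67.2% and 73.2%, against 53.2% for Igfbp1. A second listed Igfbp2 promoter, not shown, also holds 0 matches and has a GC content of 56.4%. TGTTTTG or its complement occurs in 5.56% of all 32851 promoters of the table over these 250 bases, TGTTTAC in 3.17% and TTCNNNGAA in 7.02%.

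The STAT5 palindrome was looked for in the same way in the genes known as STAT5 targets. The table held 14 promoters of 9 member genes (all but Socs2). Within 250 bases before a start, Igfals was the only member gene with a match, in 2 of its 3 listed promoters, while Igf1 and Cish had 0. The later of these Igfals promoters also held TGTTTAC, from -242 to -236. The Cish matches lie just after the start, from 1 to 9 and from 12 to 20, and over the whole listed stretch, with the bases after the start, TTCNNNGAA is found in 8.3% of promoters. These short sites are shown with 8 bases on each side, with the palindrome in capitals.
Cish, chr9:107296651-107296675, plus strand: gcccagttTTCCTGGAAagttcttg
Cish, chr9:107296662-107296686, plus strand: ctggaaagTTCTTGGAAatctgtca
Igfals, chr17:24877600-24877624, plus strand: tctataatTTCTCAGAAaagaggct
Igfals, chr17:24878165-24878189, plus strand: gccaggtgTTCCTAGAAgaggccct
A match describes the letters in these windows and says nothing of binding in these livers.

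All 6 arrays were scaled to a common level by the authors. Pearson's r of log2 values across probe sets, which are not independent, lay between 0.933 and 0.937 for pairs of knockout arrays, between 0.942 and 0.948 for wild-type pairs, and between 0.933 and 0.943 across groups, so knockout arrays were no closer to each other than to wild-type arrays. Listed genes and markers count as measured where a probe set of that gene alone was kept (upper 60% by mean). Hepatocyte markers such as Alb were bright on every array, and 0 of 9 measured endothelial markers fell below the background reference on any array. Of 6 cholangiocyte markers 5 had a probe set of their own, and 0 were kept. The only Chga probe set was above the background reference in 1 knockout and 1 wild-type array, so it does not check the labels. The background reference is the 95th percentile of 27 dim bacterial control probe sets on an array, and it lay between 151 and 322.

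Across the axis, Igfbp1, Igfbp2 and Igfbp3 read lower in knockout liver, while the probe sets of Ghr, Igf1, Igfals and Igfbp4 had log2 changes between -0.26 and 0.28. The knockout and wild-type means of Igfbp2 were 13551 ± 3152 and 24984 ± 4491 (SD, n = 3 per group), and those of Igfbp3 were 986 ± 449 and 1763 ± 275. No member passed the test across all genes: 0 of 21 probe sets had an adjusted p under 0.05 by limma with Benjamini-Hochberg, where 0.376% of all 13576 kept probe sets did. At an unadjusted p under 0.05 the count was 3 of 21, which is 14.3% beside 9.97% of all kept probe sets, and all 3 (Igfbp1, Igfbp2 and Igfbp3) were lower in knockout, where 5.58% of all kept probe sets were lower at that p. The groups did not overlap for 3 probe sets, again 14.3%, beside 15.6% of all kept probe sets. Of these, 2 were lower (Igfbp2 and Igfbp3, background 8.12%) and 1 was higher (Ghr, background 7.44%). The share that did not overlap is near the background. All 21 passed the filter on dim probe sets, with 0 having a group mean under the level it keeps. Of them 13 were higher and 8 lower in knockout, and their median log2 change of 0.016 lay beside -0.018 over all kept probe sets. Igfbp4 alone gave 6 of the 13 higher ones. With each gene read from its brightest probe set, 5 genes were higher and 5 lower, with a median of -0.14.

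**Figure D1:**
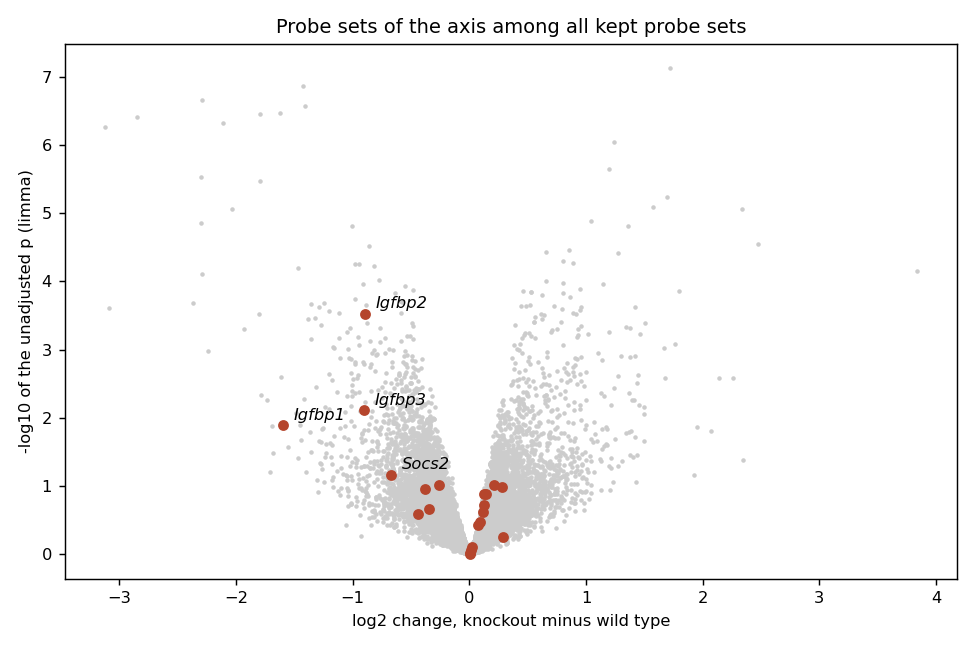
Each point is a kept probe set, with its log2 change (knockout minus wild type) on the x axis and -log10 of its unadjusted limma p on the y axis. Grey points are all 13576 kept probe sets and red points the 21 of the axis, with those of lowest p named: Igfbp2, Igfbp3, Igfbp1 and Socs2 lie on the lower side, and Igfbp2 ranks 73 by p among all kept probe sets.

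The receptor Ghr was among the brightest transcripts and was nearly level. Its brightest probe set (1417962_s_at) read 86465, 86104 and 80573 in knockout liver and 78937, 79602 and 72906 in wild-type liver. Every knockout value was above every wild-type value, by a small margin. The log2 change was 0.13 ± 0.08 (SE, 3 arrays a group, limma adjusted p = 0.629). The next probe set (1451501_a_at) read 49287, 48344 and 51392 against 49272, 45962 and 51466, and its groups overlapped throughout (0.024 ± 0.082). A dimmer probe set (1451871_a_at) pointed the other way, at 5515, 5103 and 4412 in knockout and 6552, 6482 and 5008 in wild type (-0.26 ± 0.14). Probe sets of Ghr thus disagreed in sign, the mean over all 3 was -0.035, and the 95% intervals of their changes together reached from -0.57 to 0.30.

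Stat5b, which carries the receptor's signal to the nucleus, was read by 2 probe sets. The brighter (1422103_a_at) was at 1017, 1055 and 1532 in knockout and 1682, 1746 and 1235 in wild type. Knockout replicate 3 and wild-type replicate 3 crossed over, so the groups overlapped (-0.38 ± 0.22, limma adjusted p = 0.607). The dimmer (1422102_a_at) was at 717, 292 and 518 against 865, 493 and 649.9, with knockout replicate 2 not above the background reference (-0.44 ± 0.37). Both probe sets had a lower knockout mean with overlapping groups, and neither passed the test. The dimmer had a change of -0.095 without knockout replicate 2 and of -0.72 without knockout replicate 1. The neighbouring gene Stat5a, a close relative of Stat5b, was at -0.53 ± 0.40 (limma adjusted p = 0.704), with -0.067 without knockout replicate 1 and -1.04 without knockout replicate 2, and the kinase gene Jak2 was at 0.12 ± 0.14.

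The feedback inhibitors Cish and Socs2, both known to be induced within a pulse of growth hormone signalling, varied widely among mice of the same group. Cish read 1884, 6436 and 3879 in knockout and 3499, 1429.7 and 5174 in wild type. Its highest and lowest arrays differed 3.42-fold within knockout and 3.62-fold within wild type, and the groups overlapped, with the highest array in knockout and the lowest in wild type (0.29 ± 0.47, limma adjusted p = 0.881). The spread of Cish within groups, a pooled SD of 0.92 on the log2 scale, was at the 98.2nd percentile of all kept probe sets. The sign of the Cish difference turned when knockout replicate 2 (-0.13) or wild-type replicate 2 (-0.24) was left out.

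Socs2, an inhibitor of growth hormone receptor signalling, was measured by 2 probe sets. The brighter (1449109_at) read 748, 2098 and 1618 in knockout and 2805, 1776 and 2072 in wild type. The other (1418507_s_at) read 842, 1708 and 1270.0 against 1917, 1626 and 1222. Knockout replicate 1 was the lowest array in both, and the groups overlapped in both. The changes were -0.67 ± 0.33 (limma adjusted p = 0.548) and -0.35 ± 0.26 (limma adjusted p = 0.702), and without knockout replicate 1 they shrank to -0.24 and -0.08. Knockout replicate 1 was also the lowest knockout array for Cish.

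**Figure D2:**
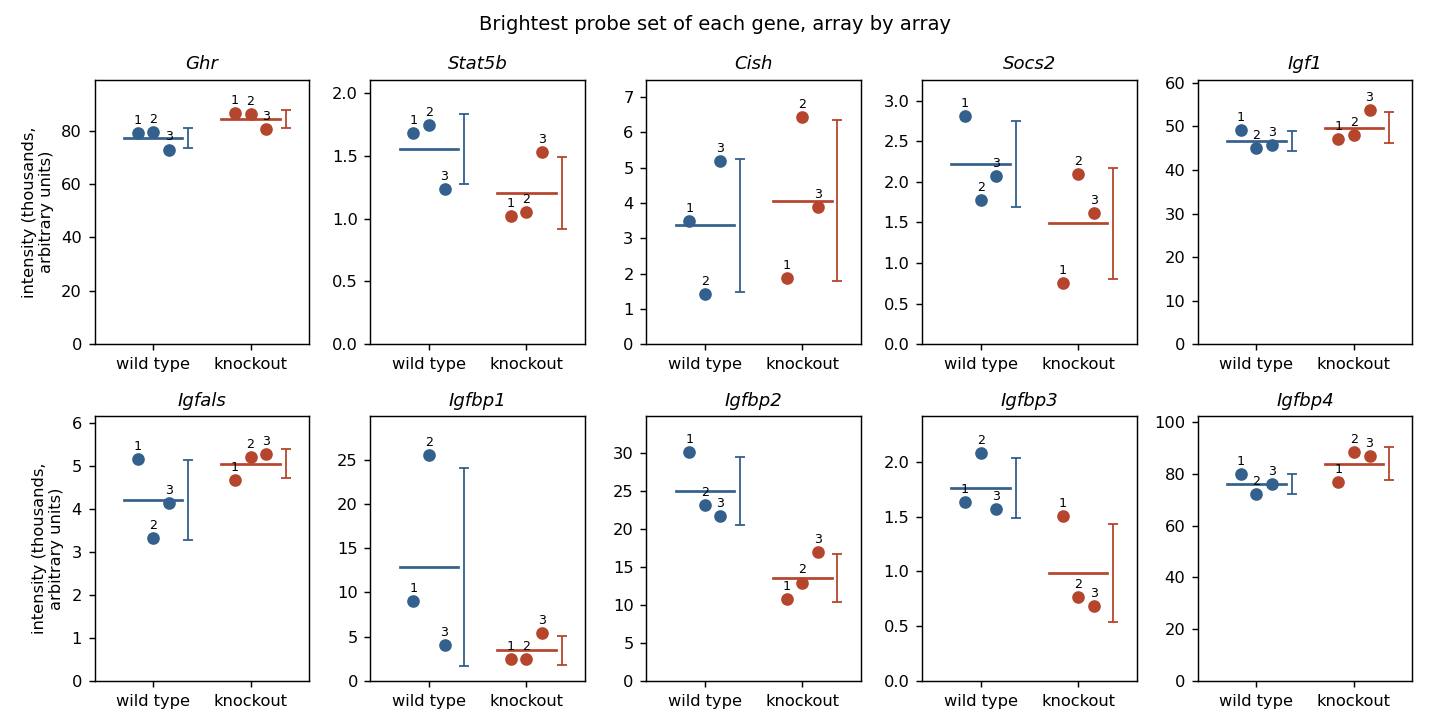
Points are the intensity of the brightest probe set of each gene in arbitrary units (divided as the axis label says), numbered by replicate, in wild type (blue) and knockout (red); horizontal lines are group means and the bars beside them 1 SD over 3 arrays. The y axis starts at 0 in each panel and differs between panels. Groups are apart for Ghr (narrowly), Igfbp2 and Igfbp3, and the wild-type Igfbp1 values spread from 4010 to 25499.

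Igf1, the hormone that carries much of the growth signal of the liver, had overlapping groups in all 3 of its probe sets, and none passed the test. Its brightest probe set (1452014_a_at) read 47128, 48083 and 53740 in knockout and 49275, 44931 and 45767 in wild type (0.09 ± 0.09, limma adjusted p = 0.781). A second probe set (1437401_at) read 46973.5, 52350.5 and 41089 against 40154, 36024 and 45237 (0.21 ± 0.11, limma adjusted p = 0.589). The dimmest (1419519_at) read 17958, 17098 and 19571 against 17484, 16257 and 16542 (0.12 ± 0.09). All 3 had a slightly higher knockout mean. Their mean gave 0.14 with a 95% interval from -0.04 to 0.32. The intervals of the 3 single probe sets together reached from -0.10 to 0.46.

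Igfals, the acid-labile subunit that completes the large IGF1 complex in blood, read 4669, 5203 and 5281 in knockout and 5163, 3327 and 4126 in wild type. Wild-type replicate 1 lay within the knockout range (0.28 ± 0.16, limma adjusted p = 0.598). The interval of the change ran from -0.07 to 0.64, and the change was 0.13 without wild-type replicate 2 and 0.44 without wild-type replicate 1.

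Among the binding protein genes, Igfbp1, Igfbp2 and Igfbp3 each had a lower knockout mean without passing the test, and Igfbp4 was level. Igfbp2, whose product is a major carrier of IGF1 outside the large complex, read 10738, 12955 and 16958.5 in knockout and 30103, 23144 and 21705 in wild type. Every knockout array was below every wild-type array. The change was -0.89 ± 0.17, which makes wild type 1.86-fold higher, with a 95% interval from -1.27 to -0.52. Its limma adjusted p of 0.054 missed the threshold, and under 15 alternative settings it ran from 0.0167 to 0.338. It passed in 4 of them: quantile normalization (0.0482), a stricter filter on dim probe sets (0.0431), array weights (0.0348) and the fit without knockout replicate 3 (0.0167). In these 15 the change itself stayed between -1.07 and -0.74.

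Igfbp3, which with Igfals holds most circulating IGF1, read 1502, 768 and 687 in knockout and 1636, 2079 and 1574 in wild type. The groups did not overlap, although knockout replicate 1 lay close to the lowest wild-type array. The change was -0.91 ± 0.28 (limma adjusted p = 0.264), with an interval from -1.52 to -0.29. Without knockout replicate 1 it was -1.25 and passed (limma adjusted p = 0.0456), while over the 15 alternatives the adjusted p ran up to 0.609. In liver, Igfbp3 is known mainly from cells other than hepatocytes. Beside it, 8 of 9 measured Kupffer cell and macrophage markers and 7 of 7 stellate cell and fibroblast markers were lower in knockout, 0 of either passing the test. Their medians were -0.21 and -0.24, beside -0.018 over all kept probe sets, and the stellate changes ran from -0.61 to -0.014. Of 8 measured hepatocyte markers 7 were higher, with a median of 0.09. The summed intensity of the macrophage markers was 18975 to 30552 in knockout and 23941 to 31412 in wild type, and that of the stellate markers 20406 to 26205 against 23833 to 32617. Of these markers none read 0, and only Cd68, kept by the filter through its wild-type values, fell below the background reference on an array. The 9 endothelial markers had a median of -0.03 and sums of 18183 to 19251 against 18485 to 18849. Emcn, the highest of these endothelial markers (0.49), was kept by the filter through its knockout values. The part of these cells in the Igfbp3 difference was not tested, and in whole tissue fewer cells of a type and less RNA per cell cannot be told apart.

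Igfbp1, the acutely regulated binding protein, gave the largest change of the axis and also the largest spread. It read 2468, 2499.6 and 5389 in knockout and 9079, 25499 and 4009.9 in wild type. Wild-type replicate 3 was below knockout replicate 3, so the groups overlapped, and the wild-type arrays alone differed 6.36-fold. The change was -1.60 ± 0.53 (wild type 3.02-fold higher, interval -2.78 to -0.41, limma adjusted p = 0.334). Its pooled SD of 1.05 was at the 98.9th percentile of all kept probe sets. Without wild-type replicate 2 the change was -0.90, and without wild-type replicate 3 it was -2.24.

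Igfbp4, an abundant binding protein that limits IGF1 action, was level across groups. The brightest of its 6 probe sets (1423756_s_at) read 76749, 88379 and 87018 in knockout and 79921, 72238 and 76324 in wild type. The 6 changes ran from 0.0041 to 0.14, all with overlapping groups and limma adjusted p-values between 0.631 and 0.994. Their 95% intervals together reached from -0.34 to 0.34.

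**Figure D3:**
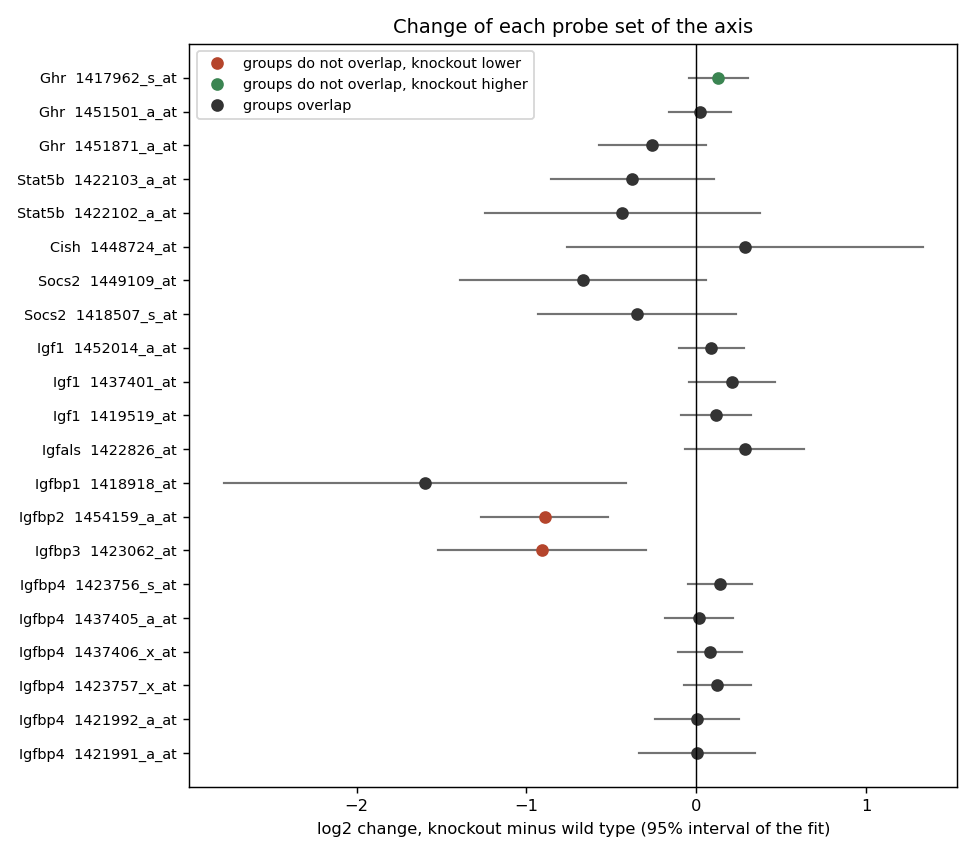
Points are the log2 change (knockout minus wild type) of each of the 21 probe sets and lines its 95% interval from the limma fit; red marks groups that do not overlap with knockout lower (Igfbp2 and Igfbp3) and green with knockout higher (the brightest Ghr probe set). The intervals of Igfbp1, Igfbp2 and Igfbp3 lie below 0, before adjustment over all probe sets, and the other 18 include 0.

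In RefSeq gene order Igfbp1 and Igfbp3 are neighbours, and Igfbp2 lies beside Igfbp5. The last pair did not share a direction: Igfbp5, another binding protein, read 718, 543 and 427 in knockout and 448, 319 and 725 in wild type (0.22 ± 0.36), and its value turned to -0.05 without wild-type replicate 2. On the other side of Igfbp2, the ribosomal protein gene Rpl37a was at 0.096 ± 0.092. None of the 10 genes lies on the chromosome of Chga.

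The genes whose profile over the 6 arrays was nearest to that of Igf1, by Euclidean distance between z-scored log2 values, were Ddx1 (0.245), Pet100 (0.25) and Gm2a (0.325). Igf1 was taken by its brightest probe set (1452014_a_at), where knockout replicate 3 was the highest array. In 1437401_at, nearly as bright, knockout replicate 3 was the lowest knockout array. Nearest to Igfbp1 were Sf3b2 (0.151), Ahcyl1 (0.242) and Fam114a1 (0.27). Over 6 arrays and 12475 probe sets such distances are a description only. Among the genes of the axis, each read from its brightest probe set, Stat5b (1422103_a_at) was nearest to Igfbp1, at 0.979 and rank 89 by distance. Wild-type replicates 1 and 2 and knockout replicate 3 were high in both. The dimmer Stat5b probe set (1422102_a_at) did not share this, with wild-type replicate 2 at 493 and knockout replicate 1 at 717. Igfals was nearest to Igf1, at 1.48 and rank 569 by distance.

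Genes that work with the axis were taken from 6 lists, with the brightest kept probe set standing for each gene. Over all kept probe sets, 0.376% passed, 9.97% had an unadjusted p under 0.05 and 15.6% had groups that did not overlap. Of 18 listed signalling partners 14 were measured and 0 passed, 7 being higher and 7 lower, with a median of -0.04. At an unadjusted p under 0.05 the count was 1, which was Stat3. Stat3, the relative of Stat5b that answers cytokines, read 5260.4, 5519.9 and 5477 against 7879.6, 7198 and 6958 (-0.44 ± 0.11, limma adjusted p = 0.141). The IGF receptor gene Igf1r was at -0.18 ± 0.32, and Igf2r, which clears IGF2, was at 0.18 ± 0.12. Of 9 other binding proteins and proteases 6 were measured and 0 passed, also 0 at an unadjusted p under 0.05. Igfbp7 was at 0.0023 ± 0.12, Igfbp6 at -0.014 ± 0.32 and the protease gene Adam12, kept through its wild-type values, at -0.69 ± 0.51.

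Of 11 regulators known for Igfbp1 or Igf1, 10 were measured and 0 passed. Of the 10, 4 were higher and 6 lower (among them Fgf21, kept through its wild-type values), with a median of -0.04. Ppara, a nuclear receptor of the fasting response, was the only one at an unadjusted p under 0.05 (-0.56 ± 0.13, limma adjusted p = 0.113), and it passed when knockout replicate 3 was left out. Foxo1 (0.057 ± 0.15) and Foxo3 (0.013 ± 0.15), forkhead factors that insulin holds out of the nucleus, had overlapping groups, and the pioneer factors were at -0.22 ± 0.36 (Foxa1) and 0.25 ± 0.26 (Foxa2). Among 8 measured genes known to respond to fasting, insulin or glucocorticoids like Igfbp1, 0 passed, 5 were higher and 3 lower, and the median was 0.11. Pck1, which starts gluconeogenesis, was at -0.15 ± 0.10, without overlap by a narrow margin. The glucose-releasing enzyme gene G6pc was at 0.93 ± 0.39, Tat, a glucocorticoid-induced aminotransferase, at 0.16 ± 0.16, and the coactivator gene Ppargc1a at -0.20 ± 0.17. G6pc was the only one of the list at an unadjusted p under 0.05, in the direction opposite to Igfbp1 and with overlapping groups. Its change ran from 0.52 without wild-type replicate 3 to 1.35 without knockout replicate 2.

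The pulsed release of growth hormone in males is known to maintain male-biased liver genes. Of 16 listed, 11 were measured and 0 passed, with 4 higher, 7 lower and a median of -0.14. Of the 11, 3 had an unadjusted p under 0.05, beside 9.97% of all kept probe sets. Groups did not overlap for 15.6% of all kept probe sets. Hsd3b5, a male-biased steroid dehydrogenase, read 22413, 17598 and 25967 in knockout and 40731.5, 29423 and 35802 in wild type, with no overlap (-0.69 ± 0.15, limma adjusted p = 0.10). The transporter gene Slco1a1 was at -0.58 ± 0.18 (limma adjusted p = 0.280), without overlap, but at -0.34 without knockout replicate 3, and Nat8f5 was higher without overlap (0.89 ± 0.22, limma adjusted p = 0.146). Cyp4a12a (-0.14 ± 0.12) and Cyp2d9 (0.19 ± 0.10), other male-biased cytochrome P450 genes, had overlapping groups. Of 15 female-biased genes 9 had a probe set of their own, and only 5 passed the filter on dim probe sets. Of these, Cyp17a1, a steroid hydroxylase, and Hao2, a hydroxy acid oxidase, had a wild-type mean under the level that the filter on dim probe sets keeps. Both were kept only through their high knockout values, so their calls and the counts of this list support nothing. Cyp17a1 read 3758, 2504 and 942.7 in knockout and 71.8, 362.6 and 78.4 in wild type, where 2 of 3 arrays were below the background reference. Its limma adjusted p was 0.0292 with the filter and 0.0513 without it. It also missed the threshold without the intensity trend and in 4 of the fits that leave out an array (knockout replicate 1, knockout replicate 2, wild-type replicate 1, wild-type replicate 3). Its fold has no firm size against a group at background. Hao2 read 1729, 445 and 902 against 477, 307 and 46.0, with wild-type replicate 3 below the background reference. Onecut1, a factor induced by growth hormone, was at 0.52 ± 0.35 and turned to -0.012 without wild-type replicate 2, and Cyp3a44 was at -0.63 ± 0.38.

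**Figure D4:**
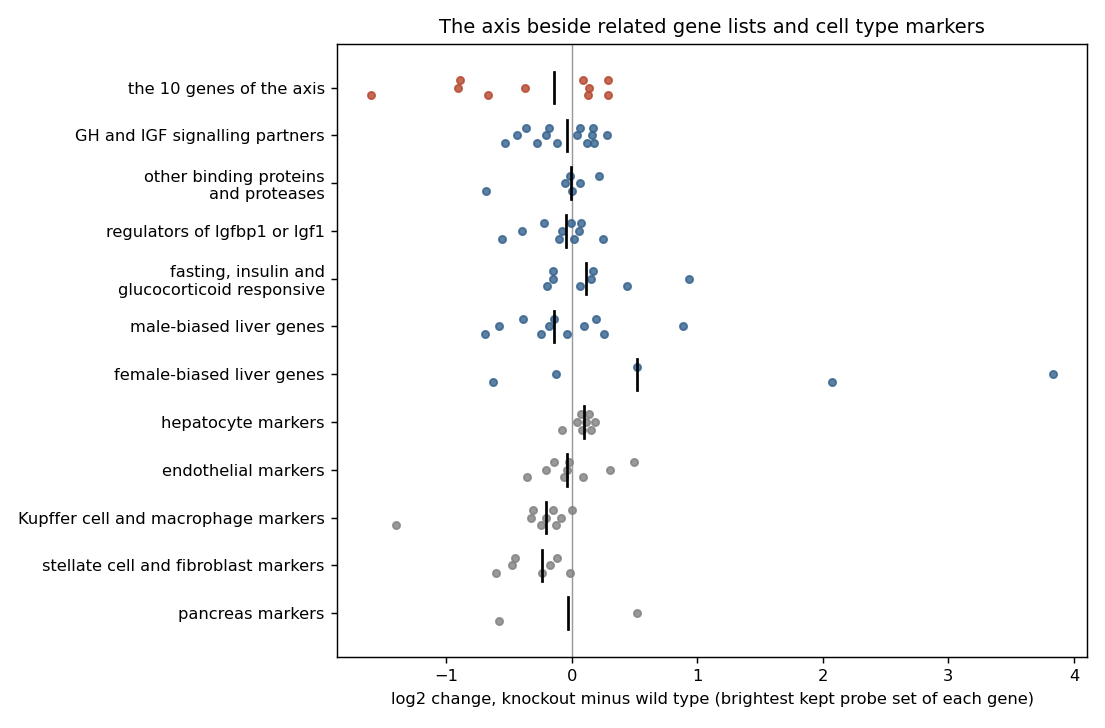
Each point is the log2 change (knockout minus wild type) of a gene, read from its brightest kept probe set, and black lines are list medians; red is the axis, blue the related lists and grey the cell type markers. The 10 genes of the axis split into 5 above and 5 below 0 (median -0.14), and the list medians lie between -0.24 for stellate cell markers and 0.52 for female-biased genes. That last median is the value of Onecut1 among 5 measured genes, and Onecut1 turned to -0.012 without wild-type replicate 2. Cyp17a1 and Hao2, which lie above Onecut1, were kept only through their high knockout values, so this median supports nothing.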

How the data were processed

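Per the submitters' processing notes, the authors processed the arrays with GCOS 1.2, the Affymetrix operating software. What they deposited is an intensity for each probe set on a linear, arbitrary scale. The mean left after trimming 2% at each end was between 2499.6 and 2499.7 on every array, so the authors had scaled them before deposit, and no source used here gives the scaling rule. Of 22690 probe sets 64 controls were left out. Of the rest, the platform annotation gave 20380 to 1 gene, 691 to several and 1555 to none.

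The brightest 60% of probe sets were kept by their mean log2(intensity + 16), 13576 in all. limma 3.58.1 in R 4.3.3 (lmFit, eBayes with an intensity trend) compared 3 knockout with 3 wild-type arrays without covariates, with Benjamini-Hochberg over all kept probe sets at 0.05. Changes are knockout minus wild type on the log2(intensity + 16) scale, which understates dim probe sets. SE and 95% intervals come from the fit and SDs from the 3 arrays of a group. With 3 against 3 arrays an exact permutation test cannot go below 0.1, and only the fit was used. The number of arrays limits the precision. The fit was tested on simulated data.

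The members, the gene lists and the rule for named genes (all member probe sets, list genes that passed and up to the first 4 measured of each list, and the 3 nearest profiles of Igf1 and Igfbp1) were chosen with earlier results of these data known. Stat3, Ppara, Nat8f5, Rpl37a, Fgf21, Cd68 and Emcn fall outside that rule and were named after their values were seen. Alb, named as an example of a hepatocyte marker, also falls outside it. The background reference was chosen after seeing the data. Alternatives were pseudocounts of 1 and 64, quantile normalization, median centring, no filter, the upper 40%, a fit without the trend, a block for the replicate number, weighted arrays, averaged probe sets of a gene, and each array left out. Promoters are from RefSeq, assembly GRCm38.p6. The files name no genome build.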

Additional observations from a re-analysis of the deposited data

How the results depend on the processing

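The number of kept probe sets that passed was 51 as reported, 7 without the intensity trend, 82 with array weights, 27 with the replicate number as a block, and 21 to 57 with each array left out. The count of member probe sets that passed was 0 as reported, 1 (Igfbp2) after quantile normalization, with the upper 40% of probe sets and with array weights, and 0 to 1 with each array left out, where Igfbp2 passed without knockout replicate 3 and Igfbp3 without knockout replicate 1. The female-biased list had 0 passing genes with no filter, with the upper 40% and without the trend, and 0 to 1 with an array left out, and the regulator list 0 to 1, the 1 being Ppara without knockout replicate 3. No pairing by replicate number was seen. Deviations from the group means correlated at -0.059, -0.060 and -0.065 for equal numbers and at -0.020 to 0.076 for unequal numbers. With 3 arrays in a group the deviations sum to 0, so such values cannot decide whether arrays were paired. The block moved no member across the threshold.

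Igfbp1, Igfbp2, Igfbp3, Socs2, Stat5b, Igf1 and Igfals kept the direction of every probe set under all alternatives run. Small changes turned sign. After quantile normalization these were Ghr 1451501_a_at (-0.026) and the Igfbp4 probe sets 1421992_a_at (-0.032), 1437405_a_at (-0.067) and 1437406_x_at (-0.0024). With the mean of all kept probe sets they were Ghr (-0.035), Foxo1 (-0.095), Foxo3 (-0.022), Igfbp7 (-0.038) and Jak2 (-0.17). Array weights turned Foxa1 (0.0015) and Igfbp7 (-0.022), and median centring Igfbp6 (0.00076). With an array left out, changes that crossed 0 ran from -0.24 to 0.75 for Cish, -0.020 to 0.061 for Ghr 1451501_a_at, -0.12 to 0.13 for Igfbp4 1421991_a_at, -0.095 to 0.12 for 1421992_a_at, -0.072 to 0.066 for 1437405_a_at, -0.68 to 0.18 for Foxa1, -0.021 to 0.21 for Foxo1, -0.11 to 0.13 for Foxo3, -0.051 to 0.52 for Igfbp5, -0.13 to 0.072 for Igfbp6, -0.075 to 0.074 for Igfbp7, -0.012 to 0.79 for Onecut1 and -0.033 to 0.28 for Tat. The cause was not tested.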
